A study of Mus musculus with 9 samples.

Results

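The transcripts described here come from genes that cells use to copy their DNA and to divide. A list of 37 such genes was read in the nasal mucosa of mice with an allergic rhinitis model, and 36 of them, among 19939 genes in all, had a probe set that the platform annotation assigned to a single gene. Where a gene had several such probe sets, the one with the highest mean over the 9 arrays was used. Of the 36 genes, 13 act mainly at the start of S phase or during DNA synthesis, and 23 act mainly from G2 through the end of mitosis. Ccnb1, which encodes cyclin B1, was not analysed here.

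The study used Affymetrix Mouse Gene 1.0 ST arrays, which carry oligonucleotide probes spread along each transcript, and values are given on the log2 scale of RMA, where a difference of 1 is a doubling. All samples were nasal mucosa of BALB/c mice labelled male and 6 to 8 weeks old, in 3 groups of 3 arrays. Control mice were sensitised and challenged with saline. OVA mice were sensitised and challenged with ovalbumin, the egg white protein used as the allergen, and were killed 2 hours after the last challenge. Mice of the 4-week group had the same ovalbumin treatment and were killed 4 weeks after the last challenge. The comparisons set the transcripts of these groups side by side. With a single saline group, the allergen-free weeks cannot be told apart from the passing of time or from age at killing. Nothing in the labels ties each array to its own animal. The p-values are therefore set against the variation among these 9 samples, part or all of which may be technical.

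The arrays resembled one another closely, with medians between 6.38 and 6.45 and correlations across genes of r = 0.973 to 0.992. Markers of the labelled tissue were present, such as Omp of olfactory neurons at 11.47 to 12.43 and Foxj1 of ciliated cells at 7.33 to 7.76. The sex-linked genes of the arrays labelled control went against their label: Xist stood at 10.62 to 11.11 there and at 4.22 to 4.42 on the 6 other arrays. A difference from the arrays labelled control therefore cannot be told apart from one of sex. The 4-week and OVA arrays carried the same male pattern.

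A dividing cell first commits to DNA replication, when cyclin E and its kinase release E2F transcription factors from the retinoblastoma protein, and E2F then switches on the genes of the replication fork and of nucleotide supply. Later, cyclins A and B with Cdk1 and the transcription factor Foxm1 turn on the genes of the spindle, the kinetochore and cytokinesis. In the nasal lining, division is a property mainly of basal and progenitor cells, which replace olfactory neurons and respiratory epithelium throughout life, and of some immune cells. In bulk tissue, fewer cells of a dividing type and less RNA per cell cannot be told apart.

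Some, but not all, of the motif words searched differed in frequency between the promoters of the replication and the mitotic genes. The RefSeq windows, on mouse build GRCm38.p6, run from 250 bases before to 50 bases after each start, and 29 of the 36 genes had one, with 30 windows in all. The E2F motif was searched as TTTCCCGC, TTTCGCGC, TTTGCCGC or TTTGGCGC, the cell cycle genes homology region, CHR, as TTTGAA or TTCGAA, and the NF-Y motif as CCAAT. Each was searched on both strands, and no word of one motif holds a word of another. An E2F word was found in 4 of 12 windows of replication genes (33.3%), in 1 of 18 windows of mitotic genes (5.56%) and in 2.27% of all 32851 windows. A CHR word was found in 2 of 12 replication windows (16.7%), 15 of 18 mitotic windows (83.3%) and 19.2% of all windows. CCAAT was found in 75.0%, 88.9% and 37.4%, respectively. The windows with an E2F word were those of Mcm3, Mcm5, Mcm6, Mcm7 and, on the mitotic side, Cdk1. These counts describe letters in a window and show no binding.

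The 250 bases before the start are printed for the 4 genes whose transcripts differed below, and for Mcm6 as an example of an E2F promoter, each 5′ to 3′ on the strand of its gene. Capitals mark every E2F, CHR and CCAAT word, whichever strand it was read on. The stretches lie at chr7:135716380-135716629 (Mki67, minus strand), chr11:99024190-99024439 (Top2a, minus strand), chr2:119618048-119618297 (Nusap1, plus strand), chr9:61946800-61947049 (Kif23, minus strand) and chr1:128359706-128359955 (Mcm6, minus strand).
Mki67: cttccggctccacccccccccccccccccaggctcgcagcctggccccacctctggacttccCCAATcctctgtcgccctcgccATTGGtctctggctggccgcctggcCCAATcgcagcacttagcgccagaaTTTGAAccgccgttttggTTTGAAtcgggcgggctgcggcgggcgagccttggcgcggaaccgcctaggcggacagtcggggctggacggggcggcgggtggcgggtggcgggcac
Top2a: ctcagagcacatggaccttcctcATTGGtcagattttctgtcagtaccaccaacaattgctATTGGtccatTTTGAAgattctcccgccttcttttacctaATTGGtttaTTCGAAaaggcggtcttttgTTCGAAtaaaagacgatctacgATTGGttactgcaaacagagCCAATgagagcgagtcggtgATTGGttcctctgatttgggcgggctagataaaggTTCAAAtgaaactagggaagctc
Nusap1: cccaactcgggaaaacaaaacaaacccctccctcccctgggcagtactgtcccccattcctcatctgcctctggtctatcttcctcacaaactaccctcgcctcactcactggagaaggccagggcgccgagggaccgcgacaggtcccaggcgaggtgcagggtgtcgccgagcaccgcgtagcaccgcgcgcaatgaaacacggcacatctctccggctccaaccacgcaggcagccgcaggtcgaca
Kif23: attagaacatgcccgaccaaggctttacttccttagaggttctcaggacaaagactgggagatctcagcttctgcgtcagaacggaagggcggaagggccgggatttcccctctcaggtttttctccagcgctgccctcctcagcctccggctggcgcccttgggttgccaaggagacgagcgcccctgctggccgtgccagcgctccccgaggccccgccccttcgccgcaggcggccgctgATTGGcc
Mcm6: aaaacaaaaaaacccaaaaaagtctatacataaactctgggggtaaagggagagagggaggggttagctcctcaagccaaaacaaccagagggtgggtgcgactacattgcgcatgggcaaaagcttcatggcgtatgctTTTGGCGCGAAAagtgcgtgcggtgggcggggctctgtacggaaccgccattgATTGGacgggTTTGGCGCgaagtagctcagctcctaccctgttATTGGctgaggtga
Mki67 holds 2 CHR and 3 CCAAT words here, and Top2a holds 4 CHR and 6 CCAAT words. Nusap1 holds none of the words searched. Kif23 has 1 CCAAT word at 7 bases before the start, and its 1 CHR word lies after the start, outside the printed stretch. Mcm6 has 3 E2F words, of which 2 share letters, and 2 CCAAT words. Whether these words relate to the changes given below was not tested.

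The typical replication gene and the typical mitotic gene differed little between the groups. The median log2 change of the 13 replication genes was −0.01 for OVA minus control, −0.0011 for 4-week minus OVA and 0.01 for 4-week minus control. The medians of the 23 mitotic genes were 0.05, 0.01 and 0.05 in the same order, beside −0.02, −0.03 and −0.05 over all 19939 genes. All of these medians of the listed genes were smaller than the spread of the group's median between arrays of one condition, which was 0.0820 (pooled SD) for the replication genes and 0.0821 for the mitotic genes. With each array centred on its median, the medians for 4-week minus control were 0.09 and 0.12, beside 0.02 over all genes. Centring thus moved the median of all genes up by 0.07 as well. Quantile normalization gave 0.089 for the replication genes in 4-week minus OVA, beside 0.016 over all genes. It gave 0.13 for the mitotic genes in 4-week minus control, beside −0.006. The spread was taken from the values before either scaling and was not computed again. The distance of the listed medians from that of all genes was not set against it. The single genes also moved little: the median size of change was 0.07, 0.08 and 0.10 over the 36 genes, against 0.10, 0.12 and 0.16 over all genes. The 3 comparisons share arrays, so their values are given side by side and are not independent.

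With the fit across all 23410 named probe sets by limma, and a threshold of 0.05 on the Benjamini-Hochberg adjusted p, 0 of the 36 genes differed between the OVA arrays and the arrays labelled control, where 1.30% of all probe sets did. At an unadjusted p under 0.05 in limma there was 1, Top2a. Over all 19939 genes, 3235 had such a p for OVA minus control, 4486 for 4-week minus OVA and 6378 for 4-week minus control. Counts at an unadjusted p given below are to be read beside these. Between the 4-week and OVA groups, 1 of 36 differed (2.78%, against 6.33% of all probe sets): Kif23 was lower, as were 2.51% of all probe sets. Between the 4-week group and the arrays labelled control, 4 of 36 differed (11.1%, against 14.4% of all probe sets). Mki67, Top2a and Nusap1 were higher (7.92% of all probe sets were) and Kif23 was lower (6.45% were). The F test for any difference among the 3 groups called Kif23 alone (adjusted p = 0.0125 in limma), and 12.4% of all probe sets. Counting both directions together, the listed genes were called no more often than the array as a whole in any of these comparisons. By class, the calls for 4-week minus control were 4 of 23 mitotic genes (17.4%) and 0 of 13 replication genes, of which 2 had an unadjusted p under 0.05, and the difference between the classes was not tested.

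**Figure D1:**
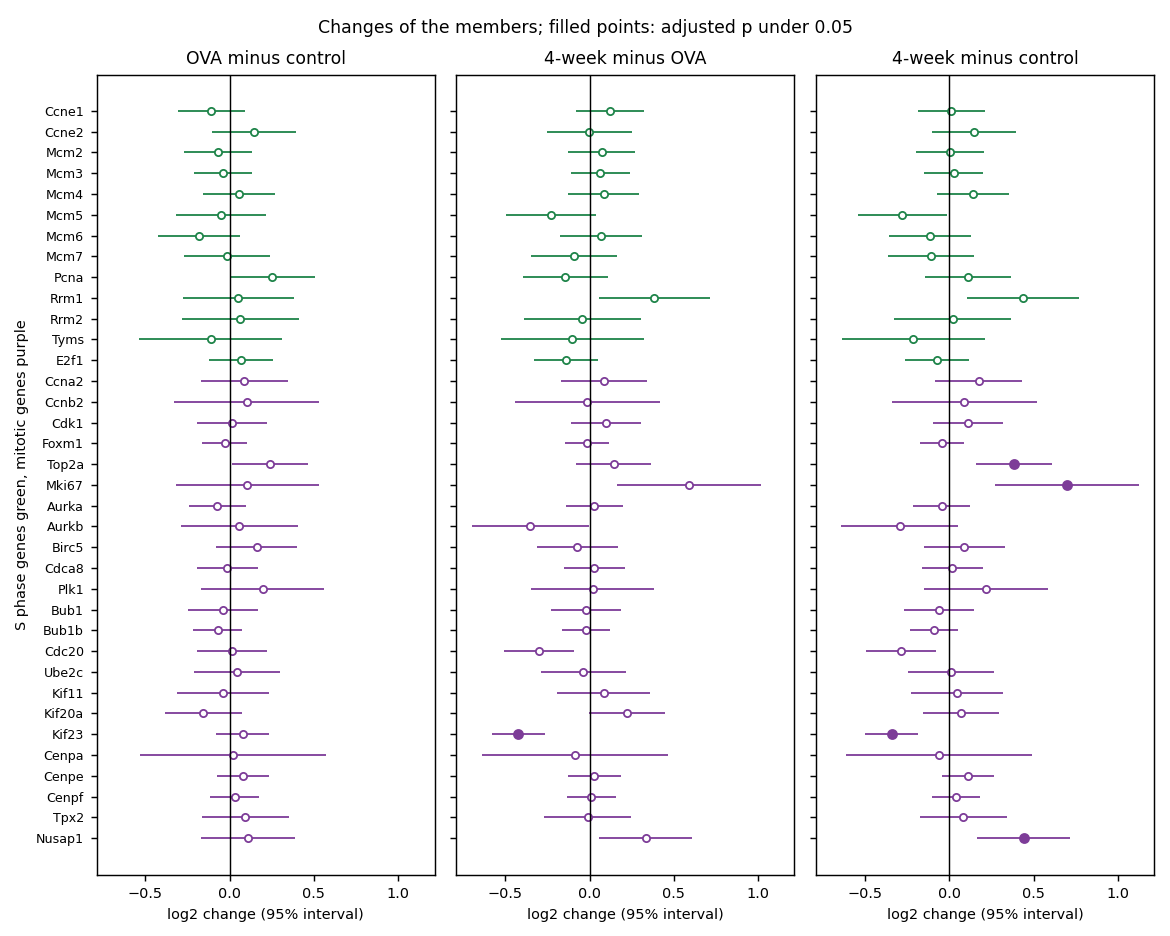
Log2 change of each of the 36 genes in the 3 comparisons, with 95% intervals from limma; replication genes are green, mitotic genes purple, and filled points have an adjusted p under 0.05. Most points lie close to 0, and the filled ones are Kif23 (4-week minus OVA and 4-week minus control) and Top2a, Mki67 and Nusap1 (4-week minus control).

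The intervals describe the differences between the groups as labelled, and part or all of the variation behind them may be technical. Against the arrays labelled control they do not bound an effect of the challenge, since the sex-linked genes differ there as well. Without detection calls, how far background narrows the changes of dim probe sets is unknown. For OVA minus control, the 95% intervals of all 36 genes lay within a 1.5-fold change in either direction, with extremes of −0.54 and 0.57. For 4-week minus OVA this held for 31 of 36 and for 4-week minus control for 29 of 36, and 35 of 36 lay within a 2-fold change in each, the exception being Mki67.

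The first replication genes to act are the cyclins E and E2F1. Ccne1 and Ccne2 encode the cyclins that drive entry into S phase, and E2f1 encodes a transcription factor of replication genes. Their log2 changes lay between −0.11 and 0.15 for OVA minus control, between −0.14 and 0.12 for 4-week minus OVA and between −0.08 and 0.15 for 4-week minus control, with adjusted p of at least 0.342. E2f1 varied little, from 5.80 to 6.21 over the 9 arrays, and 5 of its 9 values were identical.

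The 6 measured subunits of the MCM helicase, which unwinds DNA at the fork, are encoded by Mcm2 to Mcm7. None passed in any comparison, and 1 had an unadjusted p under 0.05, Mcm5 for 4-week minus control. Mcm2, a common marker of cells licensed to replicate, stood at 6.40, 6.23 and 6.17 on the arrays labelled control, at 6.18, 6.18 and 6.23 on the OVA arrays and at 6.36, 6.33 and 6.12 on the 4-week arrays. The 3 groups overlapped, and its changes were −0.07, 0.07 and 0.0037 (SE 0.09 each). Mcm6 stood at 6.01, 5.83 and 5.60 on the arrays labelled control, at 5.72, 5.51 and 5.67 on the OVA arrays and at 5.77, 5.72 and 5.62 on the 4-week arrays. The control replicates spanned more than the difference between the groups, and the change for OVA minus control was −0.18 (SE 0.11, adjusted p = 0.437 in limma). Mcm5 was steady at 6.44, 6.46 and 6.44 on the arrays labelled control and at 6.37, 6.37 and 6.46 on the OVA arrays, and read 6.37, 6.28 and 5.87 on the 4-week arrays. The 4-week values were all below those of the arrays labelled control, with the third replicate farthest, but the change of −0.28 (SE 0.12) did not pass (adjusted p = 0.137 in limma). Mcm3, Mcm4 and Mcm7 had changes between −0.11 and 0.14.

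The replication clamp and the enzymes of nucleotide supply included Rrm1, which had the largest change of the 13 replication genes, and Pcna. Rrm1 encodes the large subunit of ribonucleotide reductase, which makes deoxyribonucleotides. It stood at 7.23, 6.96 and 6.82 on the arrays labelled control, at 7.13, 6.99 and 7.05 on the OVA arrays and at 7.63, 7.56 and 7.13 on the 4-week arrays. The first and second 4-week arrays were above all others, while the third lay among the OVA and control values. The change was 0.39 (SE 0.15, 95% interval 0.06 to 0.72, adjusted p = 0.151) for 4-week minus OVA and 0.44 (SE 0.15, 0.11 to 0.77, adjusted p = 0.0763) for 4-week minus control, so neither passed in limma. Rrm2, which encodes the small subunit that is made in S phase, had changes of 0.06, −0.04 and 0.02 in the 3 comparisons, and its replicates spread widely (from 6.08 to 6.59 within the 4-week group). The difference between the subunits was not tested.

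Pcna encodes the sliding clamp that holds DNA polymerase on its template. It stood at 8.81, 8.77 and 8.48 on the arrays labelled control, at 9.002, 8.90 and 8.92 on the OVA arrays and at 8.92, 8.87 and 8.60 on the 4-week arrays. All OVA arrays were above all arrays labelled control, and the 4-week arrays spanned both. The change for OVA minus control was 0.25 (SE 0.11, 95% interval −0.00048 to 0.51, adjusted p = 0.306 in limma), the largest of the 36 genes in that comparison, and it did not pass. A second single-gene probe set of Pcna gave 0.24, −0.09 and 0.15 in the 3 comparisons, beside 0.25, −0.14 and 0.11 for the first. Tyms, for thymidylate synthase, ranged from 5.59 to 6.50 within the arrays labelled control alone, and its changes of −0.11, −0.10 and −0.21 were within that spread.

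Among the mitotic genes, the cyclins, their kinase and their transcription factor came first. Ccna2 encodes cyclin A2, Ccnb2 cyclin B2, Cdk1 their catalytic partner and Foxm1 a factor that activates G2 and M genes. The 12 changes of these 4 genes lay between −0.04 and 0.17, and none passed (adjusted p of at least 0.314 in limma). Foxm1 was the flattest, between 5.80 and 5.94 on all 9 arrays. Ccnb2 stood at 6.98 and 6.93 on the first and second 4-week arrays and at 6.22 on the third, the lowest value of all 9.

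Mki67 and Top2a, the markers most often used to count dividing cells, were higher in the 4-week group than in the arrays labelled control. Mki67 encodes Ki-67, which coats mitotic chromosomes. It stood at 7.05, 7.29 and 6.69 on the arrays labelled control, at 7.19, 6.95 and 7.19 on the OVA arrays and at 7.87, 7.92 and 7.33 on the 4-week arrays. Every 4-week array was above every other array, although the third 4-week array exceeded the second control array by little. Mki67 was 1.62-fold higher in the 4-week group than in the arrays labelled control (0.70 on the log2 scale, SE 0.19, n = 3 per group, adjusted p = 0.0404 in limma). Against the OVA group the change was 0.59 (95% interval 0.17 to 1.02), which did not pass (adjusted p = 0.0988 in limma), and OVA minus control was 0.11 (adjusted p = 0.825).

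Top2a encodes topoisomerase IIα, which untangles replicated chromosomes. It stood at 5.74, 5.68 and 5.59 on the arrays labelled control, at 6.01, 5.86 and 5.86 on the OVA arrays and at 6.23, 6.08 and 5.86 on the 4-week arrays. Both ovalbumin groups were above all arrays labelled control, and they overlapped with each other. Top2a was 1.30-fold higher in the 4-week group than in the arrays labelled control (log2 change 0.38, SE 0.10, adjusted p = 0.0355 in limma). OVA minus control was 0.24 (adjusted p = 0.281) and 4-week minus OVA 0.14 (adjusted p = 0.414). A second, dim single-gene probe set of Top2a, at 2.18 to 2.89, went differently, with changes of −0.25, 0.11 and −0.14, none of which passed, and with the mean of both probe sets the change for 4-week minus control was 0.12 and did not pass.

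Nusap1, for a protein that bundles spindle microtubules around chromosomes, was also higher in the 4-week group than in the arrays labelled control. It stood at 5.12, 5.36 and 5.09 on the arrays labelled control, at 5.31, 5.25 and 5.34 on the OVA arrays and at 5.73, 5.81 and 5.36 on the 4-week arrays. The first and second 4-week arrays were the highest, and the third was level with control replicate 2. Nusap1 was 1.36-fold higher in the 4-week group than in the arrays labelled control (log2 change 0.44, SE 0.12, adjusted p = 0.0442 in limma), while the change against the OVA group was 0.33 (adjusted p = 0.142) and did not pass.

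Kif23 was the one gene of the list to differ between the 4-week and OVA groups, and it was lower. It encodes MKLP1, a kinesin of the central spindle that is needed for cytokinesis. Kif23 stood at 6.05, 6.04 and 5.86 on the arrays labelled control, at 6.08, 6.05 and 6.05 on the OVA arrays and at 5.59, 5.68 and 5.65 on the 4-week arrays. All 4-week arrays were below all 6 others. Relative to the OVA group the 4-week mean was 1.34-fold lower (−0.42 on the log2 scale, SE 0.07, n = 3 per group, adjusted p = 0.0124 in limma) and relative to the arrays labelled control 1.27-fold lower (−0.34, SE 0.07, adjusted p = 0.015). OVA minus control was 0.08 (adjusted p = 0.612).

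**Figure D2:**
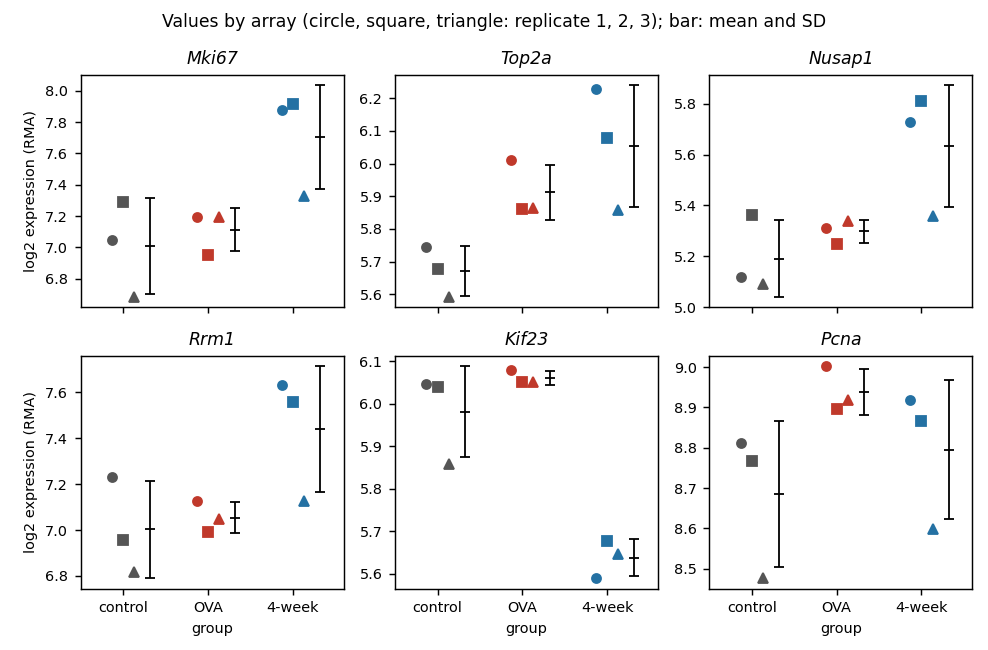
Log2 expression of Mki67, Top2a, Nusap1, Rrm1, Kif23 and Pcna on each array (circle, square and triangle for replicates 1, 2 and 3) with the mean and SD of each group of 3; each panel has its own axis. In the 4-week group the third replicate is the lowest for Mki67, Top2a, Nusap1, Rrm1 and Pcna, while Kif23 is low on all 3 of its arrays.

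The call of Kif23 against the OVA group was kept in all 9 fits that left out 1 array (log2 change −0.44 to −0.40, adjusted p = 0.0112 to 0.0467 in limma), and its call against the arrays labelled control was lost without control replicate 2 (adjusted p = 0.0518). The calls of Mki67, Top2a and Nusap1 were lost in 7 of the 9 fits each, with adjusted p up to 0.126, 0.0999 and 0.134. Those of Mki67 and Nusap1 were kept without control replicate 2 or 4-week replicate 3, and that of Top2a without OVA replicate 1 or 4-week replicate 3. The directions did not change, with log2 changes of 0.54 to 0.89, 0.30 to 0.48 and 0.35 to 0.58. The number of the 36 genes called for 4-week minus control was accordingly 2 without control replicate 2 or OVA replicate 1, 5 without 4-week replicate 3 and 1 when any of the other 6 arrays was left out. For 4-week minus OVA it was 3 without 4-week replicate 3, where Mki67 and Nusap1 passed beside Kif23. It was 1 in each of the other 8 fits. Of all 23410 probe sets, 446 to 1361 were called over the 9 fits for 4-week minus OVA and 1560 to 2966 for 4-week minus control. Without 4-week replicate 3 these were 850 and 2702, and the listed genes were called more often than the array as a whole. That difference was not tested.

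The mitotic kinases and the chromosomal passenger complex showed no call. Plk1 encodes a kinase of spindle assembly and mitotic exit. It stood at 6.10, 6.04 and 5.503 on the arrays labelled control, at 6.26, 6.10 and 5.87 on the OVA arrays and at 6.11, 6.19 and 5.99 on the 4-week arrays. Control replicate 3 was the lowest of the 9, and the change for OVA minus control was 0.20 (SE 0.16, adjusted p = 0.585 in limma). Aurkb, the kinase of the passenger complex, stood at 6.65, 6.38 and 6.19 on the arrays labelled control, at 6.52, 6.38 and 6.49 on the OVA arrays and at 6.32, 6.23 and 5.79 on the 4-week arrays. The 4-week arrays were all below the OVA arrays but not below the arrays labelled control, and the change for 4-week minus OVA was −0.35 (SE 0.15, 95% interval −0.70 to −0.0029, adjusted p = 0.206). Its partners Birc5 (survivin) and Cdca8 (borealin) had changes between −0.07 and 0.16, and Aurka, the kinase of the spindle poles, between −0.07 and 0.03.

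The spindle checkpoint and the anaphase-promoting complex are represented by Bub1, Bub1b, Cdc20 and Ube2c. Cdc20, the activator of the complex, stood at 5.25, 4.96 and 4.999 on the arrays labelled control, at 5.10, 5.01 and 5.14 on the OVA arrays and at 4.71, 4.88 and 4.76 on the 4-week arrays. As for Kif23, all 4-week arrays were below all others, but the changes of −0.30 against OVA (SE 0.09, adjusted p = 0.0878 in limma) and −0.29 against the arrays labelled control (SE 0.09, adjusted p = 0.0661) did not pass. The checkpoint kinase genes Bub1 and Bub1b had changes between −0.09 and −0.02, and Ube2c, the ubiquitin-conjugating enzyme of the complex, between −0.04 and 0.05.

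The other spindle and centromere genes had values close to one another across the groups. Kif11 encodes the kinesin that pushes the spindle poles apart, Kif20a a kinesin of cytokinesis and Tpx2 a factor for microtubule growth around chromosomes. Kif20a stood at 5.29 on the first 4-week array and between 4.78 and 5.06 on the 8 others, and its change for 4-week minus OVA was 0.22 (SE 0.10, adjusted p = 0.216 in limma). Kif11 and Tpx2 had changes between −0.04 and 0.09. Of the centromere genes, Cenpa encodes the histone variant that marks centromeres, and Cenpe and Cenpf encode kinetochore proteins. Cenpa spread widely within each group, with replicates from 5.95 to 6.70 in the arrays labelled control, from 6.05 to 6.70 in the OVA group and from 5.94 to 6.57 in the 4-week group, and its changes were 0.02, −0.08 and −0.06 (SE 0.24 each). Cenpe and Cenpf had changes between 0.01 and 0.11.

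Counted by arrays that did not overlap, 3 of the 36 genes were higher in all OVA arrays than in all arrays labelled control (Pcna, Top2a and Kif23) and 0 were lower, where 21.5% of all probe sets did not overlap. For 4-week minus OVA, 2 were higher (Mki67 and Nusap1) and 3 were lower (Aurkb, Cdc20 and Kif23), against 28.1% of all probe sets. For 4-week minus control, 2 were higher (Mki67 and Top2a) and 3 were lower (Mcm5, Cdc20 and Kif23), against 35.0% of all probe sets. These counts are below the shares of the whole array.

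Much of the variation of these genes lay between arrays of the same group. On control replicate 3, 28 of the 36 genes had their lowest value of the group, against 6536 of 19939 genes in all (32.8%). On OVA replicate 2 it was 25 of 36, against 22.4% of all genes, and on 4-week replicate 3 it was 27 of 36, against 40.7%. Both classes of the list took part: of the 13 replication genes 9, 9 and 11 were lowest on these 3 arrays, and of the 23 mitotic genes 19, 16 and 16. Genes outside the list followed less closely. Of 42 other genes of the replication machinery, 33.3%, 26.2% and 69% were lowest there, near the shares of all genes on the control and OVA arrays. Of 57 further mitotic genes it was 57.9%, 38.6% and 54.4%. These arrays were singled out after the values were seen, and genes of one array are not independent of each other.

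**Figure D3:**
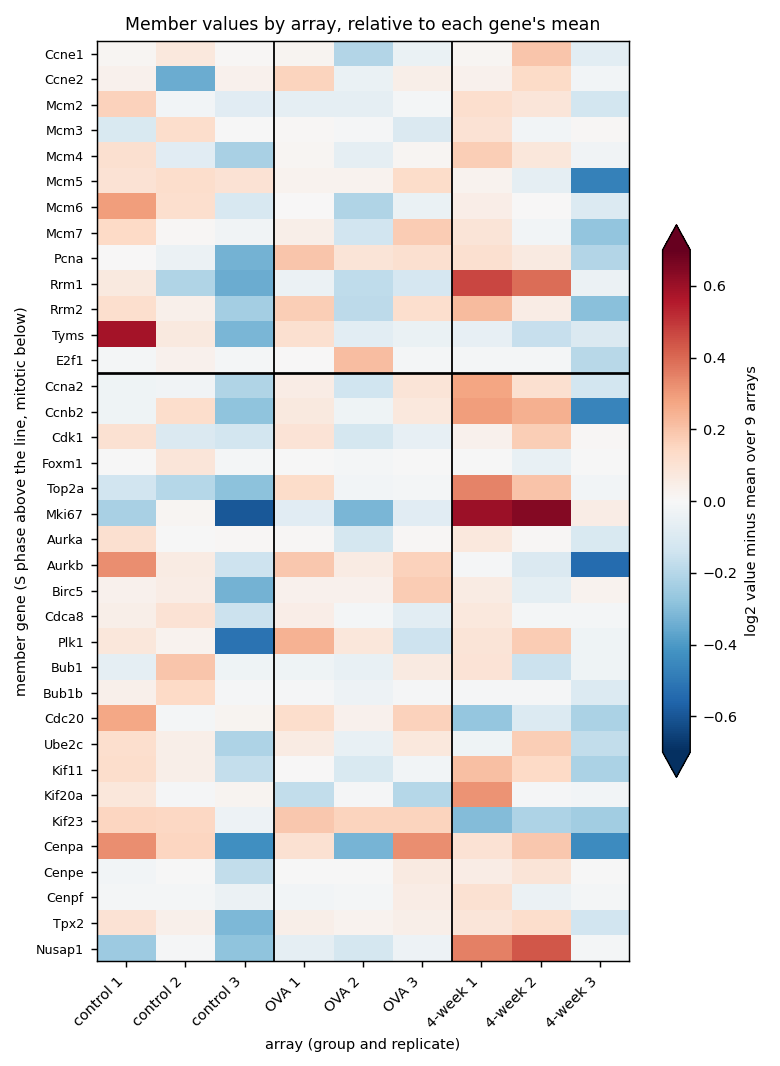
Log2 value of each of the 36 genes on each of the 9 arrays minus the gene's mean over all 9, with replication genes above the horizontal line and mitotic genes below it; red is above and blue below the mean. Control replicate 3 and 4-week replicate 3 are mostly blue, and the strongest red is that of Mki67 on 4-week replicates 1 and 2.

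Markers of other cells were counted on the same 3 arrays. Of all genes, 32.8%, 22.4% and 40.7% were lowest on control replicate 3, OVA replicate 2 and 4-week replicate 3. Some of the counts that follow were near those shares. These include T cell genes on control replicate 3 (33.3%), and basal and progenitor cell genes (40%) and B and plasma cell genes (42.9%) on 4-week replicate 3. Of 10 measured olfactory basal and progenitor cell genes, 8 were lowest of their group on control replicate 3, 0 on OVA replicate 2 and 4 on 4-week replicate 3, and their summed linear level ran from 1288 to 1698 in the arrays labelled control, from 1604 to 1865 in the OVA group and from 1631 to 1696 in the 4-week group. Of 8 macrophage genes, 7, 8 and 3 were lowest on these 3 arrays, with summed levels of 544 to 817, 679 to 1471 and 659 to 747 in the 3 groups. Of 5 measured erythroid genes, a lineage with dividing precursors, 1, 4 and 4 were lowest there, with summed levels of 558 to 625, 536 to 801 and 651 to 888. Of 7 neutrophil genes, 7, 2 and 0 were lowest there, with summed levels of 651 to 1559, 852 to 1214 and 452 to 1199. No marker was at 0, since the lowest value of the table is 1.63, and without detection calls the signal over background is unknown. Of 6 measured T cell genes, 2, 4 and 4 were lowest there, with summed levels of 197 to 233, 199 to 262 and 205 to 220. Of 7 measured B and plasma cell genes, 3, 6 and 3 were lowest there, and of 5 myeloid precursor genes 3, 1 and 3. The part of these cells in the variation of the cell cycle genes was not tested.

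**Figure D4:**
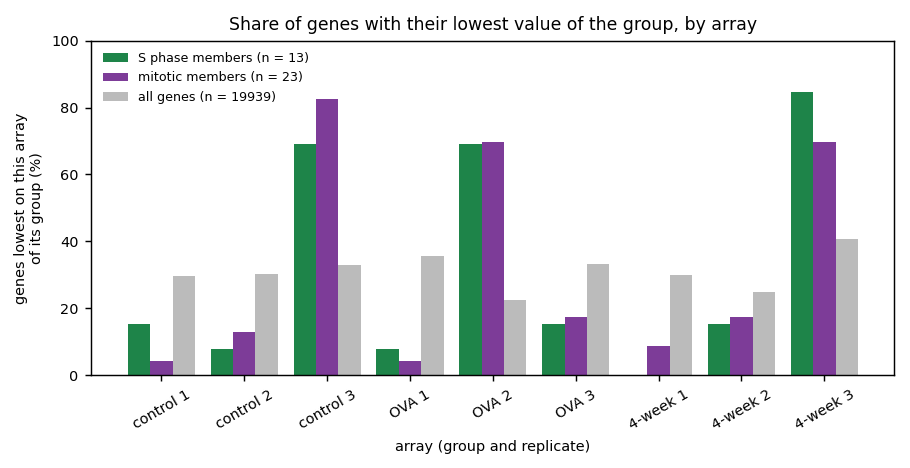
Share of genes, in percent, that had the lowest value of their group of 3 on the given array, for the 13 replication genes, the 23 mitotic genes and all 19939 genes. Control replicate 3, OVA replicate 2 and 4-week replicate 3 hold most of the lowest values of both classes, while the grey bars of all genes lie between 22.4% and 40.7%.

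Control replicate 3 and 4-week replicate 3 were also left out together, a choice made after their values were seen. In that fit 4 of the 36 genes were called for 4-week minus OVA and 5 for 4-week minus control. Of all 23410 probe sets it called 688 and 1502 in these comparisons, and 42 for OVA minus control. The arrays were chosen because most of these genes were low on them, and leaving out a low array raises the mean of its group by construction, so the added calls are given as values and not as support. Rrm1 was added in both (0.54, adjusted p = 0.045, and 0.50, adjusted p = 0.0466 in limma), and Mki67 (0.78, adjusted p = 0.0297) and Nusap1 (0.47, adjusted p = 0.0492) passed against the OVA group as well. Top2a did not (0.24, adjusted p = 0.151). For OVA minus control there were still 0 calls, and the changes of Mki67, Rrm1 and Aurkb changed sign, to −0.06, −0.04 and −0.05.

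Other genes of replication and division were counted beside the list. Of 42 measured genes of the replication machinery, 0 passed for OVA minus control (3 at an unadjusted p under 0.05, limma), 1 was higher and 1 lower for 4-week minus OVA (4.76% called, against 6.33% of all probe sets), and 2 were higher and 2 lower for 4-week minus control (9.52%, against 14.4%). Orc2, a subunit of the origin recognition complex, had 0.50 and 0.38 in these last comparisons (adjusted p = 0.0212 and 0.0302 in limma). Gins1, a part of the replicative helicase, fell by 0.36 and by 0.40 (adjusted p = 0.0213 and 0.00808). Rfc4 of the clamp loader was 0.47 higher and Tk1, thymidine kinase, changed by −0.44 against the arrays labelled control. Of 57 further mitotic genes, 0 passed in the first and second comparisons. At an unadjusted p under 0.05 in limma there were 2 and 10, where 3235 and 4486 of all 19939 genes had one. For 4-week minus control 2 of the 57 were higher and 0 lower (3.51%, against 14.4% of all probe sets called). These were Cdc25a, a phosphatase that activates cyclin-dependent kinases (0.54, adjusted p = 0.00904 in limma), and Smc4, a condensin subunit (0.34, adjusted p = 0.0142). The median over these 57 genes was −0.02, −0.05 and −0.05, close to that of all genes.

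Genes that govern entry into the cycle and exit from it were called about as often as the array as a whole, with both directions counted together. Of 24 G1 cyclin, kinase, RB and E2F genes, 0 passed for OVA minus control (1 at an unadjusted p under 0.05), 2 were higher for 4-week minus OVA (8.33%, against 6.33% of all probe sets called) and 4 were higher for 4-week minus control (16.7%, against 14.4%), with 0 lower in either. Tfdp2, a dimer partner of E2F, stood at 7.23, 7.16 and 7.06 on the arrays labelled control, at 7.29, 7.30 and 7.22 on the OVA arrays and at 7.69, 7.75 and 7.59 on the 4-week arrays. Its log2 change was 0.41 against OVA (SE 0.07, adjusted p = 0.0151 in limma) and 0.53 against the arrays labelled control (adjusted p = 0.00369). Rbl2 encodes p130, the RB relative that holds E2F targets off in resting cells. It stood at 7.41, 7.32 and 7.41 on the arrays labelled control, at 7.49, 7.30 and 7.33 on the OVA arrays and at 7.75, 7.89 and 7.76 on the 4-week arrays, a change of 0.43 (SE 0.08, adjusted p = 0.0166) and 0.42 (adjusted p = 0.00975). For both genes all 4-week arrays were above all others. E2f3 (0.41) and Cdk4 (0.28) passed against the arrays labelled control. For 4-week minus control, 7.92% of all probe sets were called higher, beside the 16.7% of this list. For 4-week minus OVA, 523 of 19939 genes were called higher. The difference from the whole array was not tested.

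Of 6 measured Cdk inhibitor genes, 1 was called for 4-week minus control (16.7%, against 14.4% of all probe sets called). This was Cdkn2a, which was lower (log2 change −0.25, adjusted p = 0.0478 in limma), as were 6.45% of all probe sets. None passed in the other comparisons (1 in each at an unadjusted p under 0.05). Cdkn1a, also a Cdk inhibitor gene, was not measured, so nothing is known of it here. Of 13 measured genes known as p53 targets, 0 passed for OVA minus control. At an unadjusted p under 0.05 in limma there were 4, where 3235 of all 19939 genes had one. For 4-week minus OVA 3 were higher (23.1%, against 6.33% of all probe sets called). For 4-week minus control 4 were higher (30.8%, against 14.4%), with 0 lower in either. These lists are small, and the difference from the whole array was not tested. Against OVA these were Trp53inp1 (0.61), Plk2 (0.54) and Ccng1, cyclin G1 (0.35). Against the arrays labelled control they were Btg2, an antiproliferative factor (0.62), Trp53inp1 (0.59), Plk2 (0.57) and Ccng1 (0.54). The medians over the 13 genes were 0.03, −0.03 and 0.04.

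Markers of cell types that divide, or that arise from dividing cells, moved as follows. For 4-week minus control, 2 of 10 basal and progenitor cell genes were higher, Neurod1 (0.76) and Kit (0.56), which is 20.0% against the 14.4% of all probe sets called, and 0 passed in the other comparisons (3 and 0 at an unadjusted p under 0.05, limma). Of 10 markers of immature olfactory neurons, 6 were higher in the OVA group (60%, against 1.30% of all probe sets called) and 5 in the 4-week group (50%, against 14.4%) than in the arrays labelled control, and 1, Gng8, was lower for 4-week minus OVA. Of 5 myeloid precursor genes, which are made in dividing cells of bone marrow, 4 were lower for 4-week minus control (80.0%, against 14.4% called), among them Prtn3 (−1.41) and Mpo (−1.37), with summed levels of 512 to 787 in the arrays labelled control, 298 to 436 in the OVA group and 220 to 387 in the 4-week group. Of 7 measured B and plasma cell genes, Xbp1 (0.51) and Jchain (2.31) were higher for 4-week minus control (28.6%, against 14.4% called), and Xbp1 was also higher for OVA minus control (0.54, adjusted p = 0.0229 in limma). T cell, macrophage and erythroid genes gave 0 calls in all 3 comparisons in limma. At an unadjusted p under 0.05, macrophage genes numbered 5 of 8 for OVA minus control (median 0.60), 4 for 4-week minus OVA (median −0.62) and 1 for 4-week minus control (median 0.02). T cell genes numbered 0, 1 and 0 of 6 in the same order, and erythroid genes 1, 0 and 3 of 5. Over all 19939 genes, 3235, 4486 and 6378 had such a p in that order. The part of these cells in the changes of Mki67, Top2a, Nusap1 and Kif23 was not tested.

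Repeated values bear on the precision of the dim genes. Of the 36 genes, 11 (30.6%) had the same value on 3 or more arrays, as did 27.7% of all tested probe sets. E2f1 and Bub1b had 5 identical values each and Foxm1 and Aurka 4 each. Mki67 had 2 identical values, and Top2a, Nusap1 and Kif23 had none.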

How the data were processed

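Per the labels' protocols, total RNA of nasal mucosa was amplified, labelled with biotin and hybridised, 1 sample to an array. The authors deposited log2 expression values for each probe set and used RMA, per the submitters' processing notes. The version of RMA and the probe set library were not given in the sources used here. The values, from 1.63 to 13.8, are what shows the scale to be log2. No depth applies to arrays, and their number, 3 per group, limits the precision.

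Of 35556 probe sets, 23410 had a gene symbol in the platform annotation and were tested, 21789 of them with 1 gene and 1621 with several. One fit over all 9 arrays in limma (version 3.58.1, under R 4.3.3), using lmFit, contrasts.fit and eBayes, gave the 3 comparisons, two-sided, with Benjamini-Hochberg adjustment over the 23410 probe sets and a threshold of 0.05. The script was tested on simulated data. The genes and lists were chosen with earlier results of these data known. Array by array values are given for genes called in any comparison, for the 4 with the largest change in each, and for Mki67, Top2a, Pcna and Mcm2; Mcm5 and Cdc20 were added after their values were seen. Promoters came from RefSeq (GRCm38.p6), matched by symbol. The alternatives were 2 scalings, a filter on dim probe sets, every probe set, the compared groups only, a replicate block, a variance trend, array weights, the mean of a gene's probe sets and leaving out each array.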

Additional observations from a re-analysis of the deposited data

How the results depend on the processing

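The count of 0 genes called for OVA minus control was the same in every alternative. For 4-week minus OVA, 1 gene was called, Kif23, and the count was 0 with the upper 60% of probe sets by mean, where 17 of the 36 genes remained and Kif23 was not among them, 2 with array weights (Mki67 and Kif23), 4 without control replicate 3 and 4-week replicate 3 together, a choice made after seeing the data, and 1 to 3 without 1 array. For 4-week minus control, 4 were called. The count was 1 with the upper 60% (Mki67), with every probe set (Kif23) and with the compared groups only (Kif23). It was 1 to 5 without 1 array. The share of all tested probe sets called moved as well. For 4-week minus OVA it was 14.1% with the upper 60% and 8.35% with array weights. For 4-week minus control it was 23.7% with the upper 60%, 10.8% with every probe set and 8.77% with the compared groups only. Quantile normalization moved the replication median for 4-week minus OVA to 0.089 and the mitotic median for 4-week minus control to 0.13. Median centring gave 0.09 and 0.12 for the replication and mitotic medians of 4-week minus control. Under quantile normalization Kif23 did not pass against the arrays labelled control (−0.26). Without 1 array the mitotic median for 4-week minus control lay between −0.038 (without control replicate 3) and 0.13. With the filter, fewer genes were tested by construction; for the other settings the cause was not tested. None of the called changes turned its direction. The listed genes with array by array values, apart from Mcm5 and Cdc20, gave 467 values under an alternative for comparisons that had not passed. Of these, 14 changed sign and 10 became called. The other listed genes were not part of this count.

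Correlations of deviations from the group means were −0.04 to 0.33 over the 9 pairs of arrays with the same replicate number and −0.36 to 0.27 over the 18 other pairs. The same-number pairs were not all positive, and 4-week replicate 2 correlated best with OVA replicate 1 (0.27), so the numbers are not taken to pair the samples, though the 3 arrays numbered 3 did correlate (0.15, 0.19 and 0.33). With a replicate block the counts were 0, 1 and 5, Rrm1 being the added gene (0.44, adjusted p = 0.0385 in limma).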
